A study of Mus musculus with 12 samples.

Results

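The genes described here have mouse symbols that begin with Anapc, Ccn (letters a to k), Cdk or Cdc followed by a digit. They encode cyclins, cyclin-dependent kinases (CDKs), CDC proteins and subunits of the anaphase-promoting complex (APC/C), with some of their partner proteins. Not all act in cell division: 11 are CDC42 or effector genes and 7 are CDKs that act on transcription. The rule used symbols alone but was set with earlier results of these data known. It matched 81 of the 21464 protein-coding genes with a known strand. The measurement was H3K36ac, an acetyl mark on the tail of histone H3 that SIRT7 can remove, mapped by ChIP-seq and recorded as lists of called peaks. A gene was counted as called in a sample when any base of a peak lay within 3000 bp of its start.

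The study compared WT mice with mice lacking Sirt7 (Sirt7-/-, labelled S7KO), both on the same inbred background. All samples came from male testes at postnatal day 5 (Pnd 5), from which spermatogonia had been enriched by differential plating, and 50000 cells were used per sample. There were 3 WT and 3 Sirt7-/- samples, numbered 2, 3 and 4 in each genotype and each from another mouse, and every ChIP library was compared with its own input. The knockout is of the whole animal, with no cell type driver named, and the cells were enriched rather than purified. Among markers of germ cells, 6 of 15 had a promoter peak in at least 1 sample, among them Zbtb16, which encodes PLZF, the protein used to check the enrichment. Among markers of testis somatic cells, 2 of 15 did (Sox9 and Vim), beside 19.7% of all protein-coding starts. No marker on either list was called in all 3 Sirt7-/- samples. Peaks at these genes do not measure the share of each cell type. The 6 lists differed in length: 906, 64 and 294 peaks in WT replicates 2, 3 and 4, and 2840, 2045 and 2591 in the Sirt7-/- replicates of the same numbers. They hold no read coverage, so the number of reads behind a peak is unknown. The paper reports clean reads for each library, and these were not used here. A gene without a peak is one without a call, not one shown to lack the mark. In these bulk samples a larger share of marked cells and more mark per cell cannot be told apart.

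Cyclins bind CDKs and turn them on at set stages of the cell cycle. The APC/C is a ubiquitin ligase that, with its activators CDC20 and CDH1, marks mitotic cyclins and securin for destruction so that chromosomes separate and the cell leaves mitosis. Some CDKs do not drive division but phosphorylate RNA polymerase II, and the symbol Cdc also covers CDC42, a small GTPase of cell shape and polarity, with its effectors. Spermatogonia divide by mitosis before they enter meiosis.

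The promoters below show the APC/C genes that were called most strongly and genes beside which no peak was called. By a rule on rank, Anapc11 and Anapc7 were printed. Cdc27, Cdc42 and Cdc73, with peaks in all 3 Sirt7-/- samples, and Cdk1, Ccnb1 and Cdc20, with none in any sample, were added after their calls had been seen. Each run is the RefSeq sequence of build GRCm38.p6, 5′ to 3′ on the strand of the gene, from 250 bases before the start through its first 30 bases. Capitals mark matches, on either strand, to a CCAAT box (CCAAT), the cell cycle homology region CHR (TTTGAA), a GC box (GGGCGG), an ETS core (CCGGAAG) or an E2F site (TTCCCGC). Anapc11 lies at chr11:120598171-120598450 on the plus strand, Anapc7 at chr5:122422194-122422473 on the plus strand, Cdc27 at chr11:104550591-104550870 on the minus strand and Cdc42 at chr4:137357730-137358009 on the minus strand. Cdc73 lies at chr1:143702864-143703143, Cdk1 at chr10:69352883-69353162, Ccnb1 at chr13:100786457-100786736 and Cdc20 at chr4:118437314-118437593, each on the minus strand.
Anapc11: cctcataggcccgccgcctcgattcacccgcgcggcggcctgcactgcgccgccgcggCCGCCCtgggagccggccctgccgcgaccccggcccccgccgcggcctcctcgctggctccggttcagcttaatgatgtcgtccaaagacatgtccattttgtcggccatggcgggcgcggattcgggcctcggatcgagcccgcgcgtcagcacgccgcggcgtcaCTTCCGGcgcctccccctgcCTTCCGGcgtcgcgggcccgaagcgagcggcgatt
Anapc7: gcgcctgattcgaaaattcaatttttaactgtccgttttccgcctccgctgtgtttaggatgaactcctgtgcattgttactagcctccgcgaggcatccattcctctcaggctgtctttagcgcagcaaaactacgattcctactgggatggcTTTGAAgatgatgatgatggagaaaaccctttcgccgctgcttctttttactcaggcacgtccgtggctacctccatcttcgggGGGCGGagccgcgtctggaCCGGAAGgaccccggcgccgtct
Cdc27: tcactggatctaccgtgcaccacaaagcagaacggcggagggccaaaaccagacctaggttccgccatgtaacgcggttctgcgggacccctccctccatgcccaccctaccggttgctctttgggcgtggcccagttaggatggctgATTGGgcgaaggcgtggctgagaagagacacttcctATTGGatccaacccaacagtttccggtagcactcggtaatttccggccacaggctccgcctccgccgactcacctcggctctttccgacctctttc
Cdc42: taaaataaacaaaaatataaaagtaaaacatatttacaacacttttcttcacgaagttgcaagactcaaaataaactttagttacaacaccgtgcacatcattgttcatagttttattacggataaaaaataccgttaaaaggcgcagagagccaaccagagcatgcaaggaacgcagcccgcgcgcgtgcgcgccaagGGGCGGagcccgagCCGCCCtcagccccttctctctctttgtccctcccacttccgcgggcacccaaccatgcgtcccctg
Cdc73: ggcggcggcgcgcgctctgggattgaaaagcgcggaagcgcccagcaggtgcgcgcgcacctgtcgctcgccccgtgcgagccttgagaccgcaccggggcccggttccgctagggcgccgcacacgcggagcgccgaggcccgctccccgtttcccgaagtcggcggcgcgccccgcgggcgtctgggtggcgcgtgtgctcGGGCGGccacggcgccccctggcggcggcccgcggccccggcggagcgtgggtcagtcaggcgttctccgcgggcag
Cdk1: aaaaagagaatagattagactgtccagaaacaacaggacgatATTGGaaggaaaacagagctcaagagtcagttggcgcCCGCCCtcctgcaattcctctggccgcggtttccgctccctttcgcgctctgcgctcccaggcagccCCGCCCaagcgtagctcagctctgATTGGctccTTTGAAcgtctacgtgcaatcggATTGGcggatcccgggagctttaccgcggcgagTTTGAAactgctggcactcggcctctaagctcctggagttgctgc
Ccnb1: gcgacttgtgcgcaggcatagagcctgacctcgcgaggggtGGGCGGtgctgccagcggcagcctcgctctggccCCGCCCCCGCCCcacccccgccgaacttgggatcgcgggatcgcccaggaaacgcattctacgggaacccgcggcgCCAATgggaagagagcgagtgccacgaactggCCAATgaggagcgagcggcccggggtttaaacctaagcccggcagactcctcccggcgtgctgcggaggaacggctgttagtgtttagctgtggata
Cdc20: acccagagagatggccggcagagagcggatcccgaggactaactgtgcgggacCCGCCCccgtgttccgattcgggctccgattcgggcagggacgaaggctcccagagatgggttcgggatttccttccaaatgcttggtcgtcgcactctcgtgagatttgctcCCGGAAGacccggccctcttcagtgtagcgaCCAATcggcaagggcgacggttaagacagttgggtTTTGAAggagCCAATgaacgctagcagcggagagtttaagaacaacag
The promoters of the uncalled mitotic genes hold 2 or more CCAAT boxes, which in Cdk1 begin 208, 80 and 48 bases before the start, in Ccnb1 99 and 67 and in Cdc20 53 and 8. Cdk1 has CHR letters 71 and 15 bases before its start and Cdc20 has them 18 bases before. Of the called genes printed, Cdc27 holds 2 CCAAT boxes (102 and 66 bases before the start) and Anapc7 a CHR match (96 bases before). Anapc11 has 2 ETS matches, 25 and 5 bases before its start. These letters are descriptions of the window, not sites of binding.

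Members had peaks in 9, 0 and 2 of 81 promoters in WT replicates 2, 3 and 4, and in 29, 17 and 21 in Sirt7-/- replicates 2, 3 and 4. The lowest Sirt7-/- sample lay above the highest WT sample. The mean was 22.3 ± 6.11 members in Sirt7-/- and 3.67 ± 4.73 in WT (SD, n = 3 each), a ratio of 6.09. The genotypes were apart over all protein-coding starts too, with 9.73 to 13.2% called in Sirt7-/- samples and 0.317 to 4.38% in WT. Those shares averaged 11.6 ± 1.74% and 2.02 ± 2.11% (SD, n = 3 each), so the separation was not particular to the members. The member contrast moved with the length of the lists. When only the 64 best peaks by the authors' -log10 q were kept in each sample, the count of the shortest list, the ratio was 1.0, with member peaks at Cdk12 (WT 2 and Sirt7-/- 2), Anapc11 (WT 4) and Cdc42 (Sirt7-/- 4). With the 294 best peaks in 5 samples, WT replicate 3 left out, it was 2.17, and without WT replicate 2 it was 22.3.

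Members were called more often than protein-coding genes as a whole in 5 of the 6 samples. In WT replicate 2 the share was 11.1% of members (exact 95% confidence interval 5.21 to 20.0%) beside 4.38% of all protein-coding starts, and in WT replicate 4 it was 2.47% (0.300 to 8.64%) beside 1.35%. WT replicate 3 had 0 of 81, which allows up to 4.45%, beside 0.317%. The Sirt7-/- shares were 35.8% (25.4 to 47.2%) beside 13.2%, 21.0% (12.7 to 31.5%) beside 9.73% and 25.9% (16.8 to 36.9%) beside 11.7%. The intervals cover counting error over genes only, which are not independent replicates. The member share over the protein-coding share was 2.36 ± 0.306 in Sirt7-/- and 1.45 ± 1.31 in WT (SD, n = 3 each), and the WT value of the 3 samples ranged from 0 to 2.54, so the genotypes' ratios overlapped. Much of the protein-coding background has promoters unlike those of the members, as described with the sequence features.

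**Figure D1:**
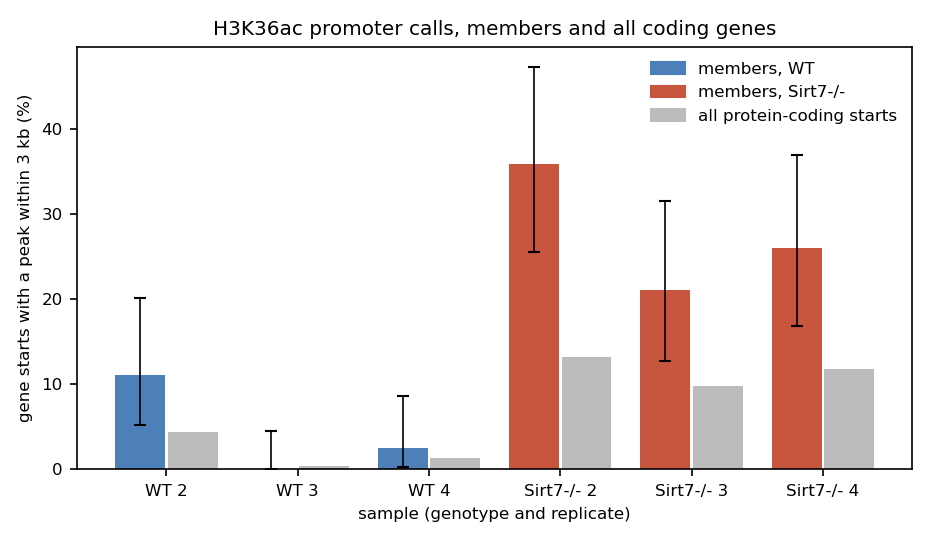
Share of gene starts with a peak within 3 kb (y axis, percent) in each of the 6 samples (x axis), for the 81 members (coloured bars, exact 95% intervals) and all 21464 protein-coding starts (grey). Member bars reach from 21.0 to 35.8% in Sirt7-/- and from 0 to 11.1% in WT.

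In all, 38 of 81 members had a peak in at least 1 of 6 samples (46.9%, beside 19.7% of protein-coding starts), 37 in at least 1 Sirt7-/- sample (19.3% of protein-coding starts) and 9 in at least 1 WT sample (5.12%). All 3 Sirt7-/- samples called 11 members (13.6%, beside 5.09%). Of these, 5 had no WT peak (6.17%, beside 2.45%): Anapc7, Anapc13, Cdc27, Cdc73 and Cdk19. At least 2 Sirt7-/- and no WT samples called 11 members (13.6%, beside 6.46%), and exactly 1 Sirt7-/- and no WT sample called 18 (22.2%, beside 8.15%). In at least 4 of 6 samples 6 members were called (7.41%, beside 2.8%): Anapc11, Cdk17, Cdk12, Cdc42, Cdc42se1 and Cdc42se2. No member was called in all 6.

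With 3 samples against 3, the smallest p that Fisher's exact test of calls (two-sided) or the exact permutation test of covered base pairs can give is 0.1, so neither can reach 0.05. In the Fisher test 525 of 21464 starts and 5 members were at that value, and in the permutation test 813 starts and 6 members. After Benjamini-Hochberg adjustment over all starts every adjusted p was 1, and 0 starts had an unadjusted p under 0.05 in either test. The gene values below are therefore descriptions of these 6 samples.

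**Figure D2:**
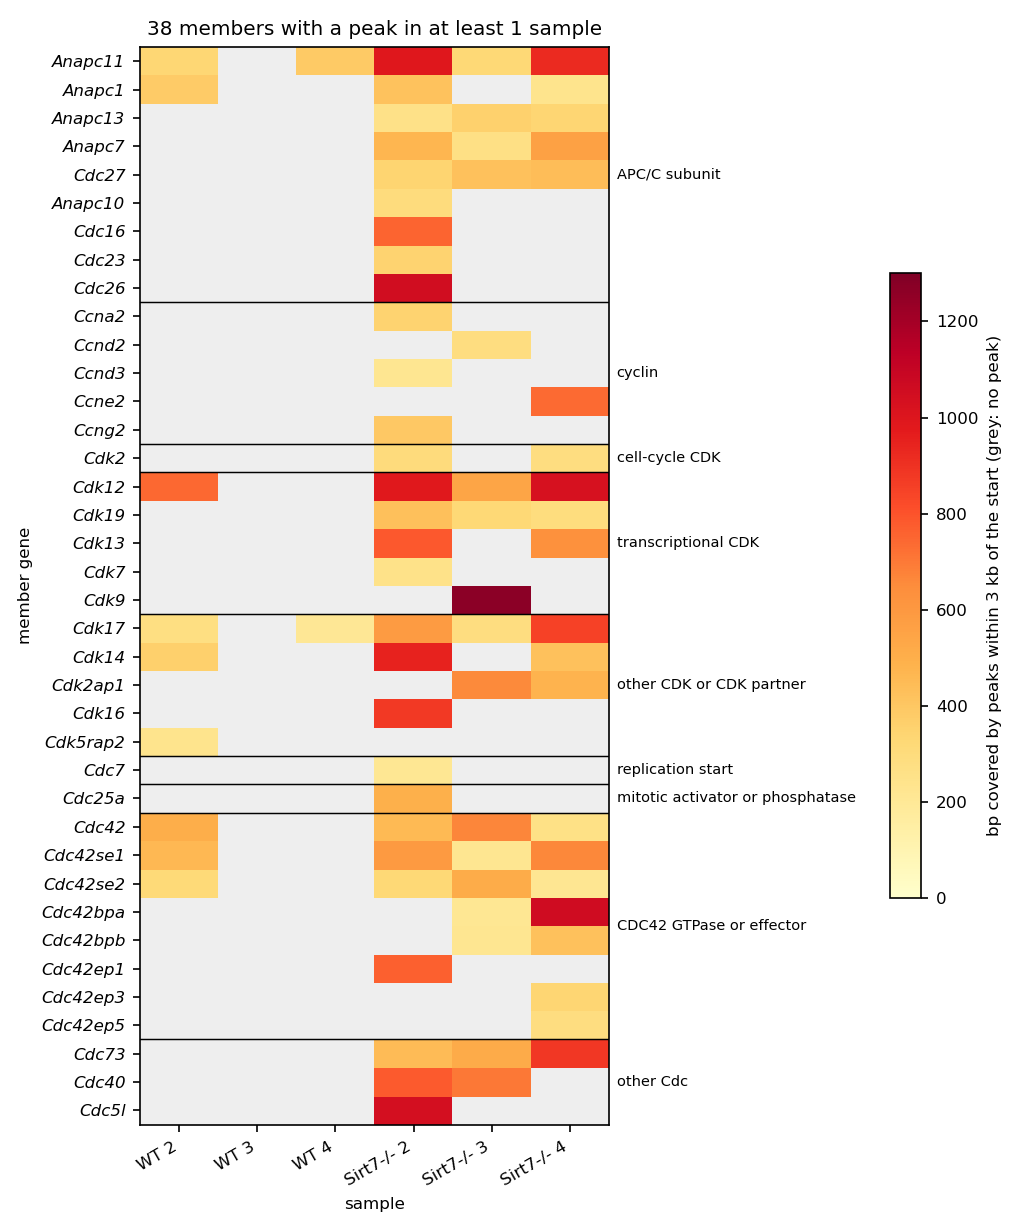
Base pairs covered by peaks within 3 kb of the start (colour, grey for no peak) for the 38 called members (rows, by group) in each sample (columns). The 3 Sirt7-/- columns hold 29, 17 and 21 coloured cells, and the WT columns 9, 0 and 2.

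Of the 14 APC/C subunit genes, 9 had a peak in at least 1 sample (64.3%, beside 19.7% of protein-coding starts), and 4 of them in all 3 Sirt7-/- samples, where 5.09% of protein-coding starts were called. No test was made between this group and others. By sample the group had 2, 0 and 1 called genes in WT and 9, 4 and 5 in Sirt7-/-. The called genes encode the scaffold (Anapc1), the catalytic RING subunit (Anapc11), TPR subunits of the arms (Anapc7, Cdc16, Cdc23 and Cdc27) and small structural subunits (Anapc13 and Cdc26), besides Anapc10. Of these, Anapc10, Cdc16, Cdc23 and Cdc26 were called in Sirt7-/- replicate 2 alone. The genes for the cullin subunit Anapc2, which pairs with Anapc11 in the catalytic core, for Anapc4 and Anapc5, which belong to the platform, and for Anapc15 and Anapc16 had no promoter peak.

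Anapc11, the RING subunit that binds the ubiquitin-loaded enzyme, was called in 5 samples. Peaks covered 335, 0 and 387 bp near its start in WT replicates 2, 3 and 4 and 986, 322 and 922 bp in the Sirt7-/- samples. One Sirt7-/- sample lay below the highest WT sample, so the genotypes overlapped, and the exact permutation p was 0.3. In WT replicate 4 its peak ranked 2 of 294 by -log10 q. The gene (chr11:120598421-120608198) lies 26.6 kb from the start of Sirt7, the deleted gene, for which no sample had a promoter peak, so that its peaks could not check the genotype labels. Anapc11 shares its promoter with Alyref. Anapc11 was the nearest start for 1 of its 5 peaks.

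Anapc7, a TPR subunit, is at chr5:122422444-122444912. Peaks covered 469, 265 and 563 bp in the Sirt7-/- samples, and none was called in WT. The best of them ranked 233 of 2045, in replicate 3. Cdc27, the TPR subunit that receives activators and is itself phosphorylated in mitosis, is at chr11:104502524-104550620. Its Sirt7-/- values were 344, 423 and 439 bp, with 0 bp in each WT sample. Anapc13, a small subunit that stabilises the arm, had 257, 359 and 336 bp in Sirt7-/- and 0 bp in WT. Its peaks lay upstream of its start, at ranks 2213 of 2840, 847 of 2045 and 2528 of 2591, and the centrosome gene Cep63 starts within 3 kb. For these 3 genes every Sirt7-/- sample lay above every WT sample (exact permutation p = 0.1, the smallest possible).

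Anapc1, the scaffold of the complex, had 385, 0 and 0 bp in WT and 421, 0 and 234 bp in Sirt7-/-, so the genotypes overlapped (exact permutation p = 0.7). Peaks at the remaining called subunits were seen in Sirt7-/- replicate 2 alone: 297 bp at Anapc10, which helps recruit substrates, 755 bp at Cdc16, 347 bp at Cdc23 and 1056 bp at Cdc26. The Cdc26 peak had its midpoint nearer to the start of the splicing gene Prpf4. Anapc15, needed for turnover of the mitotic checkpoint complex, had no peak at its gene start, but peaks of 605 and 373 bp lay in its body in Sirt7-/- replicates 2 and 3. They lay next to another RefSeq start of Anapc15, 15031 bp from the one used here, at position 101896331 of chromosome 7.

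No cyclin gene among the members was called in more than 1 sample. Such repeats were uncommon over all starts too: 2213 of 21464 protein-coding starts were called in at least 2 Sirt7-/- samples. Whether the cyclins differed from that share was not tested. Of 13 genes with a cyclin symbol, 5 had a peak (38.5%, beside 19.7% of protein-coding starts in any sample), each in 1 Sirt7-/- sample: Ccna2, Ccnd3 and Ccng2 in replicate 2, Ccnd2 in replicate 3 and Ccne2 in replicate 4. Ccna2, the S-phase and mitotic cyclin, had 350 bp, Ccnd2 289 bp and Ccne2, a partner of CDK2 at the start of S phase, 737 bp. Ccnd2 and Ccnd3 encode D cyclins, which pair with CDK4 and CDK6 in G1. The Ccnd3 peak (233 bp, rank 133 of 2840) had its midpoint nearer to Taf8, a gene of the TFIID complex. The mitotic cyclins Ccnb1 and Ccnb2, the G1 cyclins Ccnd1 and Ccne1, and Ccna1, Ccnb3 and Ccng1 had none. Ccnb1ip1, counted here by its symbol, encodes a protein that interacts with cyclin B1 and is not a cyclin. It had no peak either.

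Of the CDKs that drive division, 1 of 4 was called, Cdk2 (25.0%, beside 19.7% of protein-coding starts in any sample). This S-phase kinase had 303, 0 and 289 bp in Sirt7-/- replicates 2, 3 and 4 and 0 bp in WT (exact permutation p = 0.4). Cdk1, the kinase of mitosis, and Cdk4 and Cdk6, the kinases of G1, had no call in any sample.

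Among CDKs that act on transcription, 5 of 7 were called in any sample (71.4%, beside 19.7%). Cdk12, which phosphorylates the tail of RNA polymerase II during elongation, had the best mean rank percentile (5.84, where 0 is the best peak of a list) of the members called in more than 1 sample. Its peaks covered 745, 0 and 0 bp in WT and 981, 541 and 1030 bp in Sirt7-/-, so the lowest Sirt7-/- sample lay below WT replicate 2 (exact permutation p = 0.2). Their ranks by -log10 q were 21 of 906 in WT and 60 of 2840, 246 of 2045 and 179 of 2591 in Sirt7-/-. Cdk19, a kinase of the Mediator complex, had 431, 322 and 293 bp in Sirt7-/- and 0 bp in WT, and in replicate 4 its peak ranked 81 of 2591. Cdk13 was called in 2 Sirt7-/- samples and Cdk7 and Cdk9 in 1 each, and Cdk8 and Cdk11b in none.

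The remaining CDKs and CDK partners were called in 5 of 15 cases (33.3%, beside 19.7%). Cdk17, a kinase of the PCTAIRE family, had peaks in 5 samples, with 278, 0 and 207 bp in WT and 587, 285 and 851 bp in Sirt7-/-. Each Sirt7-/- value was above each WT value, the closest being 285 and 278 bp (exact permutation p = 0.1). Cdk14, of a related family, had 364, 0 and 0 bp in WT and 947, 0 and 423 bp in Sirt7-/-. Cdk5rap2, a centrosome protein gene, was the one member called in WT (235 bp, replicate 2) with no Sirt7-/- peak. Cdk2ap1 was called in 2 Sirt7-/- samples and Cdk16 in 1.

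The CDC genes outside the APC/C were described by role, and no group was tested against another. Cdc20, which activates the APC/C in mitosis, had no call, nor had the phosphatase genes Cdc25b and Cdc25c. Cdc25a, the phosphatase that frees CDK2 and CDK1 from inhibitory phosphorylation, had 497 bp in Sirt7-/- replicate 2 alone, at rank 2642 of 2840, and was the 1 called of 7 mitotic activators and phosphatases (14.3%, beside 19.7%). Of the genes for the start of replication, Cdc7, a kinase that fires origins, had 210 bp in that sample at rank 2836 of 2840, and Cdc6 and Cdc45 had none.

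CDC42 and its effectors had peaks at 8 of 11 genes (72.7%, beside 19.7% of protein-coding starts), with 3, 0 and 0 in WT and 4, 5 and 7 in Sirt7-/-. The protein-coding shares by sample were 4.38, 0.317 and 1.35% in WT and 13.2, 9.73 and 11.7% in Sirt7-/-. Cdc42 itself had 505, 0 and 0 bp in WT and 452, 669 and 262 bp in Sirt7-/-, with peaks as high as position 82 of 906 (WT 2) and 49 of 2591 (Sirt7-/- 4) in their lists. Cdc42se1 and Cdc42se2 encode small CDC42-binding effectors. Cdc42se1 had 461, 0 and 0 bp in WT and 590, 219 and 664 bp in Sirt7-/-. The values of Cdc42se2 were 319, 0 and 0 bp in WT and 323, 512 and 217 bp in Sirt7-/-. For all 3 genes WT replicate 2 lay inside the Sirt7-/- range, and WT replicates 3 and 4 had no call (exact permutation p = 0.3, 0.2 and 0.2).

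Of the other Cdc genes 3 of 7 were called (42.9%, beside 19.7%). Cdc73, a subunit of the PAF1 complex of elongating polymerase, had 447, 517 and 883 bp in Sirt7-/- and 0 bp in WT, which left the genotypes apart (exact permutation p = 0.1). Its ranks were uneven, 72 of 2840 in replicate 2 but 1865 of 2045 in replicate 3. Cdc40, called in 2 Sirt7-/- samples, and Cdc5l, called in 1, encode splicing factors. Both Cdc40 peaks had midpoints nearer to Wasf1.

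**Figure D3:**
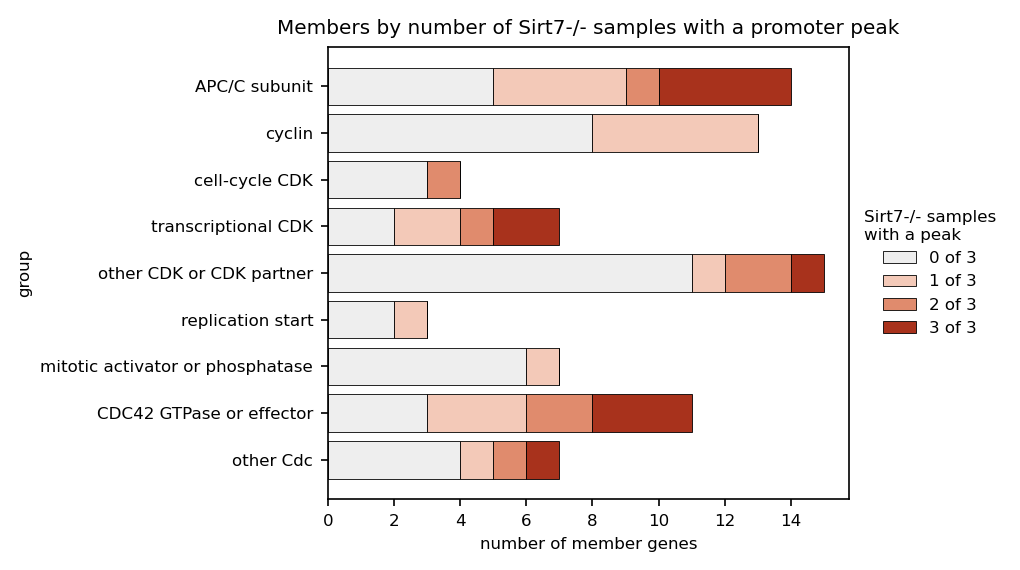
Number of member genes (x axis) in each group (y axis), shaded by the number of Sirt7-/- samples with a promoter peak. Calls in all 3 samples sit in the APC/C (4 genes), transcriptional CDK (2), other CDK (1), CDC42 (3) and other Cdc (1) groups. No cyclin among the members was called in more than 1, where 2213 of 21464 protein-coding starts were called in at least 2.

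Repeated and single calls differed in rank. Member peaks of genes called in all 3 Sirt7-/- samples had a median rank percentile of 35.3 (0 is the best peak of a list, 100 the last), and 23 of 33 had a percentile of at most 50. For genes called in 2 Sirt7-/- samples the median was 64.4 (7 of 16) and for those called in 1 it was 74.6 (3 of 18). All protein-coding starts gave 35.4, 52.8 and 64.0 in the same order, so the same order held for them. Of the 18 members called in a single Sirt7-/- and no WT sample, 13 were in replicate 2, 2 in replicate 3 and 3 in replicate 4, where the shares over protein-coding starts were 45.3, 20.9 and 33.8%. Without Sirt7-/- replicate 2, 25 members were called in any sample, and 8 in both remaining Sirt7-/- samples and no WT sample. The latter rule asks for fewer calls once a sample is left out, so its count cannot fall. Protein-coding counts under this setting are not given, so these values are not set against a background.

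By sample, the median rank percentile of member peaks was 77.7 in WT replicate 2, 17.0 in WT replicate 4, and 68.3, 42.1 and 39.4 in the Sirt7-/- samples. All promoter peaks of these lists had medians between 47.6 and 49.7. Members therefore sat in the weaker part of the list in both samples numbered 2 and in the stronger part in the other 3, of which WT replicate 4 held only 2 member peaks.

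**Figure D4:**
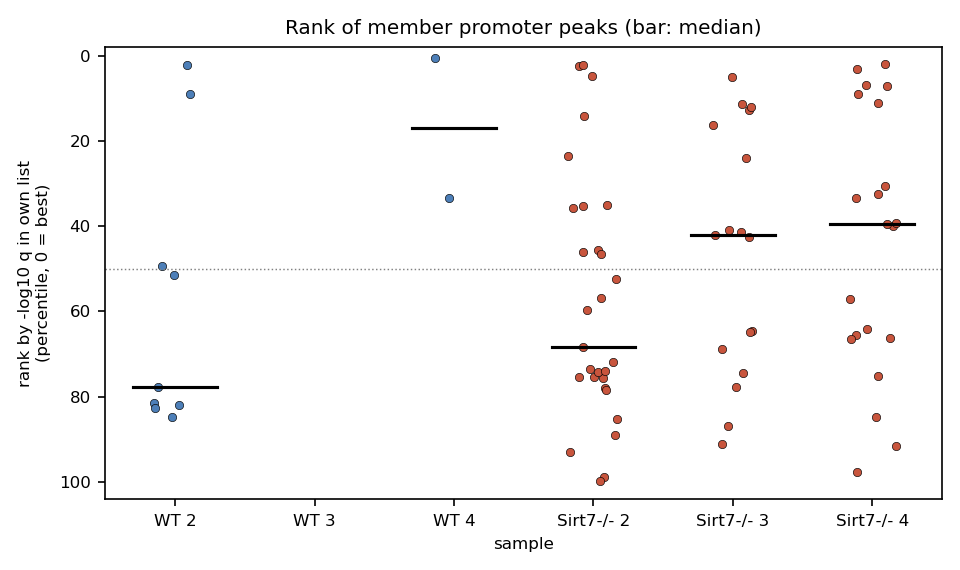
Rank percentile by the authors' -log10 q (y axis, 0 is the best) of each member promoter peak in its own list, by sample (x axis), with the median as a bar. Medians were 68.3, 42.1 and 39.4 in Sirt7-/-, 77.7 in WT replicate 2 and 17.0 in WT replicate 4, and WT replicate 3 had no member peak.

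Member peaks were narrow, with widths between 207 and 1268 bp. Median widths were 364 and 297 bp in WT replicates 2 and 4 and 452, 359 and 439 bp in Sirt7-/-. The means of these medians were 330.5 ± 47.4 bp (SD, n = 2) in WT and 416.7 ± 50.4 bp (SD, n = 3) in Sirt7-/-, and the ranges overlapped. All promoter peaks of the same samples had medians of 376 and 300 bp in WT and 491, 457 and 468 bp in Sirt7-/-, above the member median in each list. The fold over input given by the authors was between 3.15 and 7.51 for member peaks.

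The peaks lay beside the start rather than on it. Of 78 member peaks, 72 had their midpoint within 1000 bp of the start, 18 held the start itself, and 54 (69.2%) had their midpoint downstream of it, with a median offset of 312 bp into the gene. All promoter peaks, measured from their nearest protein-coding start, had midpoints downstream in 78.2 to 89.6% of cases by sample, with median offsets from 300.5 to 340.5 bp. The member share was lower, but it was measured from the member's own start also where another start was nearer. That held for 8 peaks, at Anapc11, Cdc40, Cdc26 and Ccnd3, each with its midpoint upstream of the member's start. The shares are therefore not measured alike, and the gap is not read as a trait of the members. Among members called in at least 3 samples, Cdc27, Cdk19, Cdk17, Cdc42, Cdc42se1 and Cdc42se2 had every peak wholly downstream, and Anapc13 every peak wholly upstream. By midpoint alone, every peak of Cdk12 and Anapc1 was also downstream and every peak of Cdk14 upstream. For 70 peaks the member was the nearest protein-coding start. Among called members 7 had another coding start within 3 kb of a peak, and for Cdc26, Cdc40 and Ccnd3 the member was never the nearest. Counting each peak only for its nearest start left 35 called members, and 5 in all 3 Sirt7-/- and no WT samples.

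**Figure D5:**
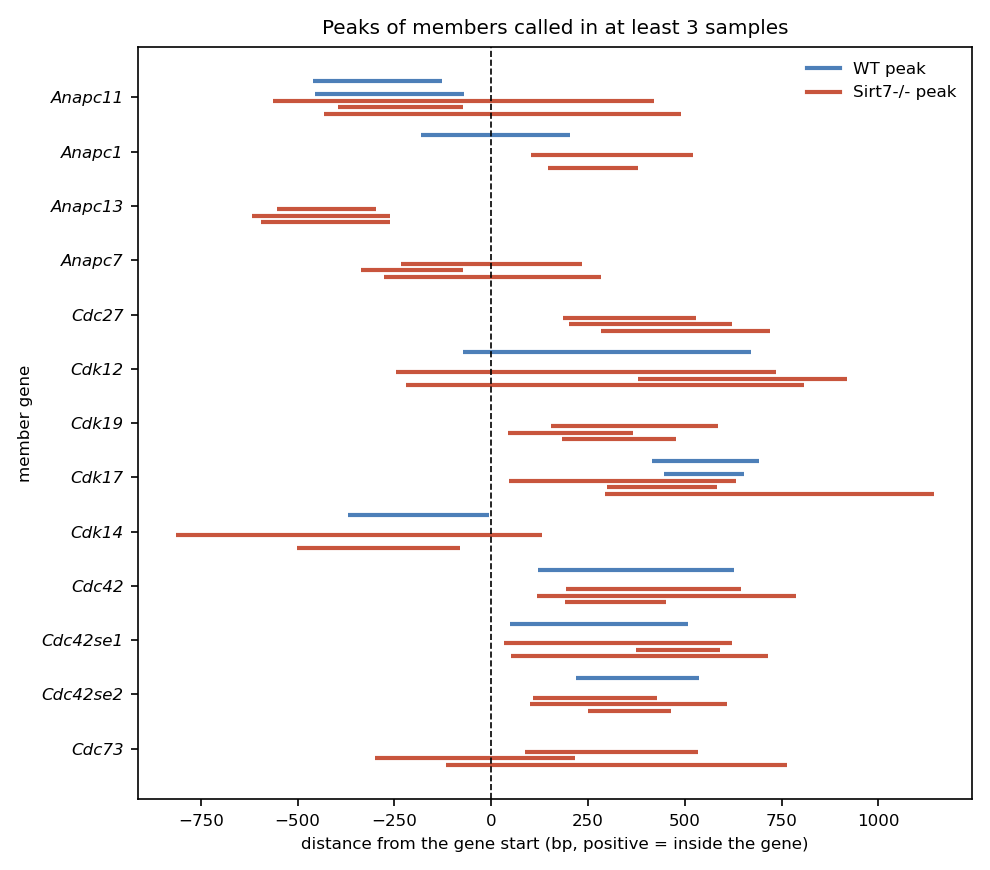
Extent of each peak (lines, blue WT and red Sirt7-/-) relative to the gene start (x axis, bp, positive inside the gene) for members called in at least 3 samples (rows). Peaks at Cdc27, Cdk19, Cdk17, Cdc42, Cdc42se1 and Cdc42se2 lie inside the gene, and those at Anapc13 lie upstream.

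WT peaks fell at places where Sirt7-/- samples had peaks too. Of the 9 members called in WT, 8 were called in at least 2 Sirt7-/- samples, which is 88.9% of the WT-called members and 42.1% of the 19 members with at least 2 Sirt7-/- calls. For all protein-coding starts the shares were 75.2% and 37.3%. At each of those 8 genes the WT peak overlapped every Sirt7-/- peak of the gene.

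Of the 43 uncalled members, only Cdc25c had a peak within 10 kb of the gene start used here (7568 bp, Sirt7-/- replicate 2). Anapc15, also among the 43, had the peaks at its other start described above. Distances for uncalled starts in general were not computed. For Cdk4 the nearest peak in any sample was 21029 bp away, for Cdc20 27721 bp, for Cdc6 30083 bp and for Ccnb1 41880 bp.

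Promoter sequence was at hand for 70 members (86.4%) and for 17491 protein-coding starts (81.5%), in windows from 250 bases before to 50 after a start. For 39 members that start is the one used for the calls. Member promoters had a median GC content of 61.0% and a CpG observed-over-expected ratio of 0.846, against 56.3% and 0.577 for all. By the limits of 0.6 for the ratio and 50% for GC, 58 of 70 member promoters and 8003 of 17491 overall were CpG-rich. Within that class 26 of 58 members (44.8%) and 35.9% of protein-coding starts were called in any sample, a gap smaller than over all starts. In the other class 6 of 12 members and 6.16% of protein-coding starts were called. Of these called members, Cdc42, Cdc42bpa and Cdc40 missed only the GC limit, at 49.3, 45.7 and 43.7%. Cdk16, Ccnd3 and Cdc42ep5 missed only the ratio limit, at 0.590, 0.577 and 0.282. Members and protein-coding starts in this class were not matched for CpG content.

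GC boxes were found in 48 of 70 member promoters (68.6%) and 46.3% of all. They stood in 24 of 32 called members (75.0%) and 24 of 38 uncalled ones (63.2%), where protein-coding starts gave 71.9% and 40.0%. The ETS core was in 15 of 70 (21.4%) against 11.9%, and in 6 of 13 APC/C promoters. CCAAT boxes were in 27 of 70 (38.6%) against 39.2%: 9 of 32 called (28.1%) and 18 of 38 uncalled members (47.4%), beside 34.0 and 40.5% for protein-coding starts. The CHR letters were in 16 of 70 (22.9%) against 16.5%, and the E2F letters in 6 of 70 (8.57%) against 6.01%. No test was made on these shares.

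The wider cell cycle machinery outside the symbols was read from a list of 92 genes, of which 91 were found. Of these 26 (28.6%, beside 19.7% of protein-coding starts) had a promoter peak in any sample. By sample, 5, 1 and 1 were called in WT and 15, 14 and 18 in Sirt7-/-. The protein-coding shares were 4.38, 0.317 and 1.35% in WT and 13.2, 9.73 and 11.7% in Sirt7-/-. All 3 Sirt7-/- samples called 8, where 5.09% of protein-coding starts were called: Cul1, E2f3, Foxm1, Lin9, Mad1l1, Orc6, Rb1 and Ube2s. Cul1, the cullin of the SCF ubiquitin ligase, was called in all 6 samples, with 752, 799 and 719 bp in WT and 918, 840 and 1079 bp in Sirt7-/-. Of the RB and E2F genes 6 of 19 were called, and Rb1, the retinoblastoma repressor of E2F, had 1075, 1125 and 969 bp in Sirt7-/- and 0 bp in WT. Among the activators, inhibitors, ubiquitin-conjugating enzymes and substrates of the APC/C, 1 of 8 was called, Ube2s, the enzyme that extends ubiquitin chains for the complex, with 254, 243 and 850 bp in Sirt7-/- and 0 bp in WT. The CDK inhibitor and CKS group had 4 of 12 called and the replication licensing group 4 of 19. In the group of cyclins outside the symbols, which includes Mnat1, 5 of 14 were called. Among these, Ccnt2 was called in 1 WT and 2 Sirt7-/- samples and Ccnk in 2 Sirt7-/- samples.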

How the data were processed

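H3K36ac ChIP-seq of 6 samples was analysed. The input libraries were not analysed here. Per the labels and methods, the authors used Trim Galore 0.6.6 for trimming and Bowtie2 2.4.4.1 for alignment to mm10, kept uniquely mapped, non-duplicated reads of mapping quality 30 or more (SAMtools 1.19.2), and ran MACS2 2.2.5 in broad mode (cutoff 0.1) on each ChIP library with its own input, without pooling. For every peak the deposited files hold coordinates, a score, a fold enrichment over input (a ratio), and the -log10 of a p-value and of a q-value, all as MACS2 wrote them. The score was not used, and the rest were used only within their own list. Reads per peak are unknown, so intervals cover counting error only.

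Gene starts came from the RefSeq table of GRCm38.p6, the assembly of mm10. Strand came from RefSeq promoters (17491 genes) or, by symbol and chromosome, from GENCODE vM39 (3973), and of 15831 genes with both, 15727 were the same. Genes in the table with no strand (21883 genes before, 21464 after) were left out. Calls within 3000 bp were tested with Fisher's exact test, and covered base pairs in that window with an exact permutation test, each over all starts. The members and lists were chosen with earlier results of these data known. Genes were named by rule: APC/C subunits and members called in at least 4 samples, in all 3 Sirt7-/- and no WT samples or in any WT sample. A list of 20 genes, core cell cycle genes and Cdc42, was named as well. The use of promoter sequences at any distance from the gene start was settled after values had been seen. The numbers were checked for pairing: promoter deviations of same-numbered samples correlated at 0.028, 0.020 and 0.0077. Those of samples with different numbers correlated at -0.027 to 0.0091. All these values were small, and the samples were not treated as pairs. Calling was tested on 200 simulated starts. Statistics used SciPy 1.17.1 and NumPy 2.4.6, tables pandas 2.3.3 and figures matplotlib 3.10.9, all under Python 3.11.15.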

Additional observations from a re-analysis of the deposited data

How the results depend on the processing

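The ratio of called members, Sirt7-/- over WT, was above 1 in each alternative but the one with 64 best peaks per sample (1.0), and ranged up to 22.3 (without WT replicate 2). Leaving out each sample gave 4.06 to 22.3, and the replicate block, over numbers 2 and 4 because WT replicate 3 had no call, gave 5.82. Same-numbered samples were not treated as pairs. The 5 members with calls in each Sirt7-/- but no WT library became 2 with a -log10 q of at least 2, and 0 with peaks of at least 500 bp, with 64 best peaks, with peaks that cover the start, or with 294 best peaks in 5 samples (chosen after seeing the data). Leaving out 1 sample gave 5 to 9 (9 without WT replicate 2, 8 without Sirt7-/- replicate 2). Members called in any sample (38) were 20, 20, 3, 12 and 10 under the same 5 settings and 25 to 38 on leaving out 1 sample. The member share over the protein-coding share in Sirt7-/- (2.36) was 2.77 with 64 best peaks, 1.86 with peaks that cover the start and 3.67 with 294 best peaks, and 2.18 to 2.46 on leaving out 1 sample. In WT (1.45) it fell to the other side of 1 with peaks of at least 500 bp (0.552), with peaks that cover the start (0.782) and without WT replicate 2 (0.914), and was 2.44 with 64 best peaks, with 0.914 to 2.18 on leaving out 1 sample. The stricter settings keep fewer peaks by construction. Leaving out a sample loosens the rule of calls in each Sirt7-/- but no WT library, so that count cannot fall. Protein-coding counts are not given beside the member counts under these settings. The difference in median width (86.2 bp) was 48.7 to 126.5 bp. A window of 1000 bp, either gene end, any RefSeq start (added) and the nearest start only (added) moved these counts by less than 1.5 times. The share of CpG-rich members called in any sample (44.8%) was 52.3% with sequences within 100 bp of the gene start (53 members, also tried after seeing the data).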
